A study of Homo sapiens with 6 samples.

Results

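The genes described here carry peptides onto MHC class I molecules and trim those peptides. They were the light chain gene B2M, the transporter genes TAP1 and TAP2, the chaperone genes TAPBP and TAPBPL, the aminopeptidase genes ERAP1 and ERAP2, the transactivator gene NLRC5 and the heavy chain genes HLA-E and HLA-F. Of these 10 genes, 8 had a probe set that the array annotation pairs with exactly 1 gene symbol, among 18417 genes so measured. HLA-E and HLA-F had none and were not analysed here. Where a gene had several such probe sets, the brightest was chosen by its mean over all 6 arrays, a measured value that does not look at the groups.

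HCT116, a human colorectal carcinoma cell line, was grown with serum, transiently transfected with double-stranded siRNA and harvested 48 h later. In 3 arrays, labelled siChe-1, the siRNA was directed against Che-1, the protein made from AATF. In the other 3, labelled control, it was directed against GFP, a jellyfish protein that these cells do not encode. Both groups therefore received siRNA, and there was no untransfected group. Total RNA was hybridised to single-colour Affymetrix whole-transcript arrays, and the levels below are log2 RMA intensities, on which a step of 1 is a doubling. Whether the 3 RNA samples of a group were from separate cultures is not given in the labels. The p-values therefore measure the spread between these arrays, and their number limits the precision. The means of 12 epithelial markers lay between 3.71 and 12.1 in the arrays labelled siChe-1 (median 8.11) and between 3.63 and 12.5 in those labelled control (median 7.87). Those of 14 leukocyte markers lay between 2.46 and 6.07 in the arrays labelled siChe-1 (median 3.55) and between 2.41 and 5.84 in those labelled control (median 3.46). The gut markers VIL1 and KRT20 lay inside the leukocyte range in both groups. None of the 14 leukocyte markers passed the limma test used below, 2 had an unadjusted p under 0.05 (CD14 and CD3D, both above 0), and 2 of the 14 had a difference below 0.

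The gene targeted by the siRNA did not match the group labels. AATF read 8.53, 8.81 and 8.87 in the arrays labelled siChe-1 and 7.55, 7.75 and 7.55 in the arrays labelled control, a log2 difference of 1.12 ± 0.13 (SE) with limma adjusted p = 0.00122. Groups are named by their labels throughout, and each direction below would turn if the labels were exchanged.

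MHC class I molecules show peptides from inside the cell to cytotoxic T cells. Peptides made by the proteasome enter the endoplasmic reticulum (ER) through the TAP transporter, are shortened there by ERAP enzymes, and are loaded onto a heavy chain paired with beta-2-microglobulin while the chaperone tapasin holds the complex open. Interferons are known to raise many of these genes, through sites in their promoters and through NLRC5, which acts on a conserved promoter module of class I genes.

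Promoter sequences of these genes are shown, and no link between them and the differences between groups was tested. Sequences before RefSeq starts (GRCh38.p14) were available here for 8 of the 10 genes (B2M, TAP1, TAP2, TAPBP, TAPBPL, ERAP1, ERAP2 and HLA-F). They covered 12 starts in all, and the 250 bases before each were searched on both strands. For NLRC5 and HLA-E no such sequence was at hand, so their promoters were not searched. Below are the 200 bases before the start of 6 genes, on the strand of the gene and 5′ to 3′. They are B2M (chr15:44711317-44711516, plus strand), TAP1 (chr6:32853705-32853904, minus), TAP2 (chr6:32838740-32838939, minus), TAPBP (chr6:33314079-33314278, minus), ERAP1 (chr5:96807946-96808145, minus) and ERAP2 (chr5:96876300-96876499, plus). For genes with more than 1 start, the start with most matches is shown. Capitals mark matches to GAAANNGAAA, a repeat like that bound by interferon-activated factors, or to the NF-kB consensus.
B2M: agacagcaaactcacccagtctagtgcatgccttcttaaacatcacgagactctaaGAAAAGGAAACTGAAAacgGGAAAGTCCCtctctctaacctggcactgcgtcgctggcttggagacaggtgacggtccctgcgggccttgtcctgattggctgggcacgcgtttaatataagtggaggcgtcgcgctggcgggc
TAP1: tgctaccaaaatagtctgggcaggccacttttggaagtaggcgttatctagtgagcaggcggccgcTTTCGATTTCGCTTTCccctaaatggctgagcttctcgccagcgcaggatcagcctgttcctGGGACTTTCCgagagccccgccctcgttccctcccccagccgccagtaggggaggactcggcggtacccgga
TAP2: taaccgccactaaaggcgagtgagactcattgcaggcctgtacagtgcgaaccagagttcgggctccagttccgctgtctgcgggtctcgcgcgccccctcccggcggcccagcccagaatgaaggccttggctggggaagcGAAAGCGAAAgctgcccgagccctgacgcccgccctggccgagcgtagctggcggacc
TAPBP: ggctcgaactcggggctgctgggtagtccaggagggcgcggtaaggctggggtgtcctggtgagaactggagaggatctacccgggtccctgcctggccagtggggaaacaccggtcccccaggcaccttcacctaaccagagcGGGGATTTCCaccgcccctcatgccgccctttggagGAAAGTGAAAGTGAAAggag
ERAP1: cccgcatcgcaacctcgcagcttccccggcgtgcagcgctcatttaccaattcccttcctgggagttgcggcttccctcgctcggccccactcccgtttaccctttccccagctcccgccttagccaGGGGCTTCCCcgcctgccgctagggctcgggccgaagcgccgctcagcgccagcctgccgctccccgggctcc
ERAP2: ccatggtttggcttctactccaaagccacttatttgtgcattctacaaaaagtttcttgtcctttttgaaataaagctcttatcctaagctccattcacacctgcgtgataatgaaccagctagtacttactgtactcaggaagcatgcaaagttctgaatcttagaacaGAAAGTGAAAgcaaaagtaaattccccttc

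The repeat GAAANNGAAA lay before 6 of the 12 starts, those of B2M, TAP1, TAP2, TAPBP, ERAP2 and HLA-F, against 3.02% of the 35116 starts of all genes searched the same way. In B2M, TAP1 and TAPBP the repeat occurred as 2 overlapping matches. In TAPBP they lay between 20 and 5 bases before the start, and in B2M between 144 and 129 bases before it. The NF-kB consensus lay before 5 of the 12 starts, in B2M, TAP1, TAPBP, TAPBPL and ERAP1, against 9.96% of all starts. The palindrome TTCNNNGAA, a form bound by STAT factors, was matched before the other start of TAP1, against 6.57% of all starts. The short motif ATTGG, a reversed CCAAT box, lay before 4 of the 12 starts (32.0% of all) and TGACG, part of a cyclic-AMP response element, before 2 of the 12 (21.2% of all). B2M held both short motifs, TGACG from 75 to 71 and ATTGG from 49 to 45 bases before the start. Among measured genes with GAAANNGAAA, the log2 differences (siChe-1 minus control) were -1.78 for B2M and TAP1, -1.66 for TAP2, -1.17 for ERAP2 and -0.50 for TAPBP. Among those searched without it, they were -2.14 for ERAP1 and -0.98 for TAPBPL. Whether the repeat bears on the differences was not tested. A match is a string of letters and does not show that a factor was bound, and the starts used in HCT116 cells were not measured.

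**Figure D1:**
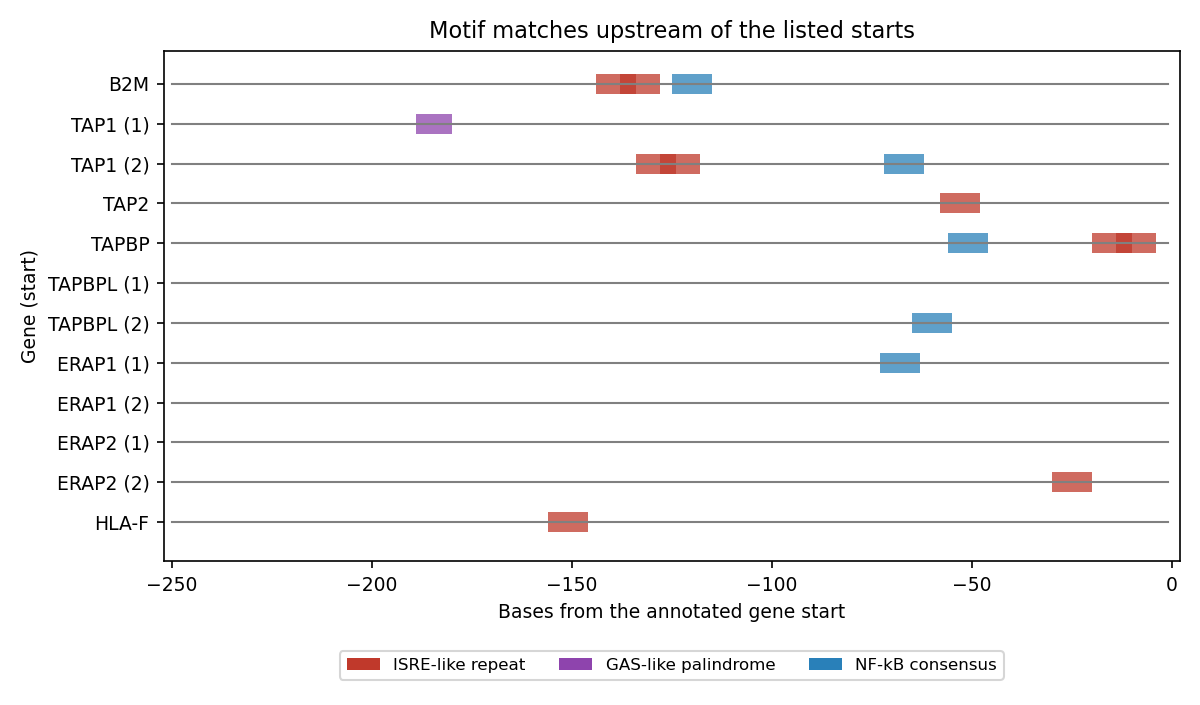
Matches to 3 motifs in the 250 bases before each of the 12 listed starts, with the horizontal axis in bases from the start and a bar for each match. Red bars (GAAANNGAAA) lie before 6 starts, blue bars (NF-kB consensus) before 5 and a purple bar (TTCNNNGAA) before 1.

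Of the 8 measured genes, 7 were lower in the arrays labelled siChe-1, 0 were higher and TAPBP did not pass (limma, Benjamini-Hochberg adjusted p under 0.05 over 18417 genes). The median log2 difference of the 8 was -1.53, against 0.0051 over all genes, and 6 of the 8 were lower by at least 2-fold. By the same test 3.72% of all genes passed, 2.52% being lower and 1.19% higher. All 8 had groups that did not overlap, with siChe-1 below control. Over all genes 24.0% did not overlap, 13.3% with siChe-1 below control and 10.6% with it above. Because the 10 genes were named with earlier results of this comparison known, these counts describe the genes and are not independent evidence of a direction. In bulk RNA, less transcript in each cell and fewer cells that make it cannot be told apart.

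**Figure D2:**
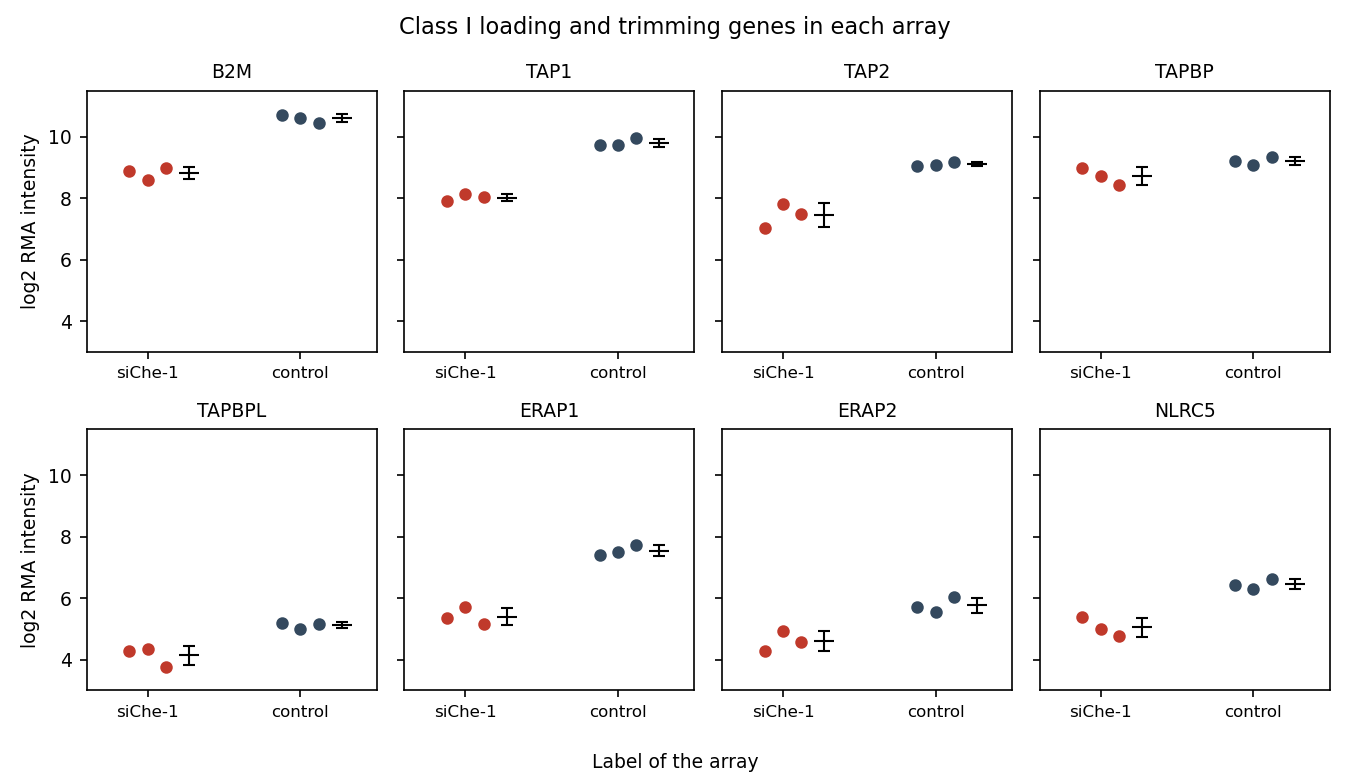
Level of the 8 measured genes in each array, as log2 RMA intensity. Points are arrays in order of replicate number, and the bar beside them is the mean ± SD of 3 arrays. The arrays labelled siChe-1 lie below those labelled control in all 8 panels, with the narrowest gap (0.072) for TAPBP.

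B2M encodes beta-2-microglobulin, the light chain that every classical class I heavy chain needs to fold and reach the cell surface. It read 8.88, 8.58 and 8.98 in the arrays labelled siChe-1, against 10.7, 10.6 and 10.5 in the arrays labelled control. Each siChe-1 array was at least 1.48 log2 units below the lowest control array. B2M was 3.44-fold lower, with a log2 difference of -1.78 ± 0.14 (SE, 95% confidence interval -2.09 to -1.47, limma adjusted p = 5.72e-05). Among all genes it had the 59th largest absolute difference. Its mean level over the 6 arrays ranked at the 97th percentile of the 18417 genes on this scale.

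TAP1 and TAP2 form the transporter that pumps peptides from the cytosol into the ER. TAP1 read 7.89, 8.12 and 8.04 in the arrays labelled siChe-1, against 9.71, 9.73 and 9.96 in the arrays labelled control. The groups were 1.59 apart at their nearest arrays, and TAP1 was 3.44-fold lower (log2 difference -1.78 ± 0.13, SE, limma adjusted p = 2.44e-05). TAP2 read 7.03, 7.82 and 7.49 in the arrays labelled siChe-1, against 9.06, 9.06 and 9.19 in the arrays labelled control. Its siChe-1 arrays were spread over 0.79 and its control arrays over 0.13, with replicate 1 of siChe-1 the lowest. TAP2 was 3.15-fold lower (log2 difference -1.66 ± 0.18, SE, limma adjusted p = 0.000705). The 3 probe sets of TAP1 gave identical values in every array, so they add no measurement. The 3 of TAP2 gave log2 differences between -1.66 and -1.60. They ran nearly in parallel over the arrays, so they were not taken as separate measurements.

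The change of TAP1 relative to TAP2 was small beside its spread. The per-array log2 value of TAP1 minus TAP2 averaged 0.57 ± 0.28 in the arrays labelled siChe-1 and 0.70 ± 0.062 in those labelled control (SD, n = 3 each), a difference of -0.13 with overlapping groups. An exact two-sided permutation test gave p = 0.5 (0.5 adjusted over 3 pairs of relatives). Without siChe-1 replicate 2 the difference turned to 0.0063. The smallest p that 3 arrays against 3 allow is 0.1, so this test could not pass.

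TAPBP encodes tapasin, which bridges TAP to the empty class I molecule and favours tightly binding peptides. TAPBP read 8.99, 8.72 and 8.41 in the arrays labelled siChe-1, against 9.21, 9.06 and 9.35 in the arrays labelled control. The highest siChe-1 array lay 0.072 below the lowest control array. Its log2 difference was -0.50 ± 0.16 (SE, 95% confidence interval -0.85 to -0.14, limma adjusted p = 0.124). Without siChe-1 replicate 1, the highest of its group, the difference was -0.64 and passed (limma adjusted p = 0.0186). Without any other single array it did not pass. The difference then lay between -0.57 and -0.35, and the limma adjusted p between 0.192 and 0.342. The 3 probe sets of TAPBP differed in brightness, with means between 7.47 and 8.71 in the arrays labelled siChe-1 and between 7.92 and 9.21 in those labelled control. Their log2 differences lay between -0.53 and -0.45. They also ran nearly in parallel over the arrays and were not taken as separate measurements.

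**Figure D3:**
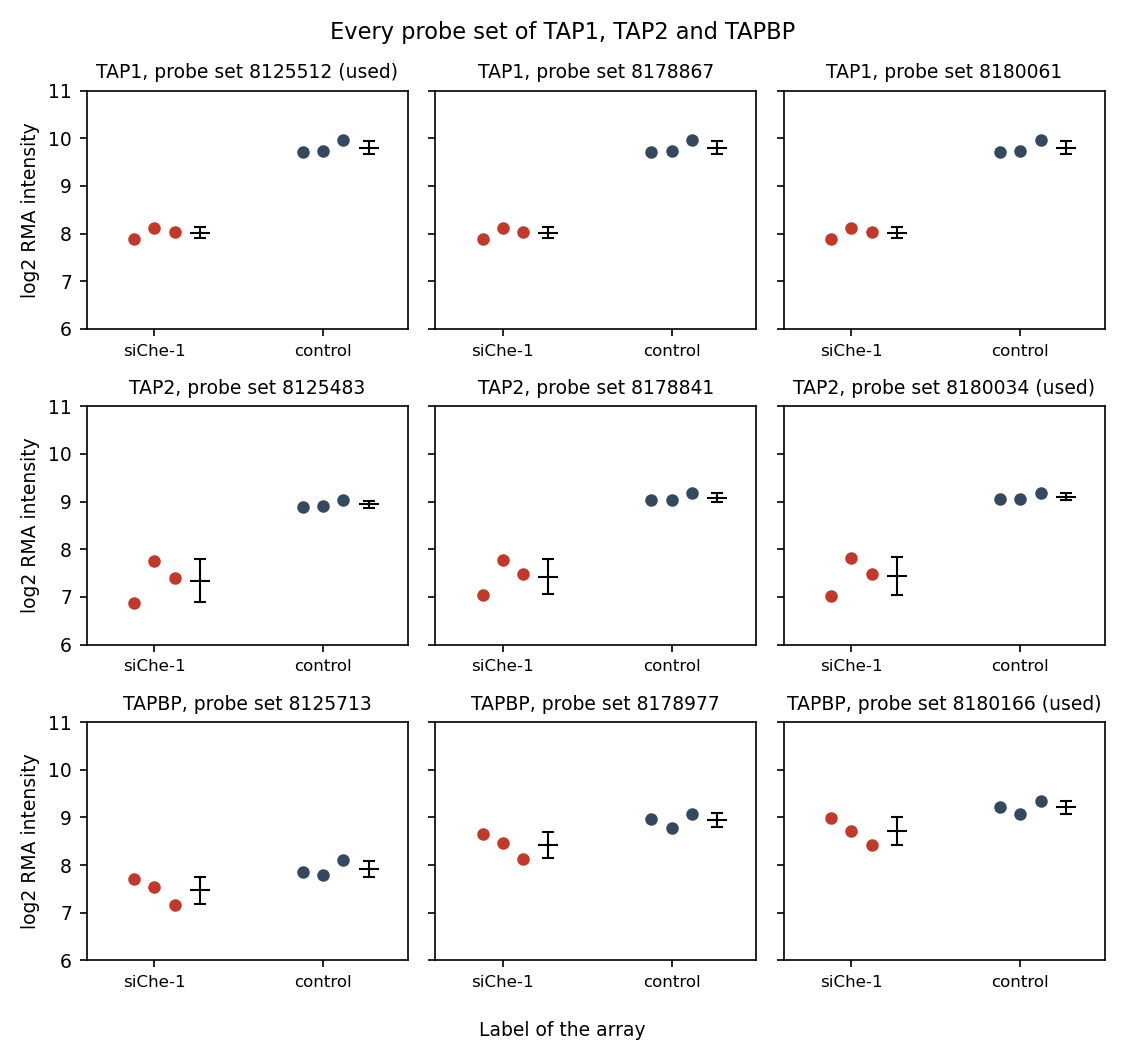
Every probe set of TAP1, TAP2 and TAPBP, with log2 RMA intensity on the vertical axis. Points are arrays in order of replicate number, bars are the mean ± SD of 3 arrays, and "used" marks the probe set taken for the gene. The 3 TAP1 panels are identical, and the 3 TAPBP panels differ in level while their log2 differences lie between -0.53 and -0.45. Probe sets of TAP2, and those of TAPBP, run nearly in parallel and are not separate measurements.

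TAPBPL encodes TAPBPR, a tapasin relative that edits the peptides of class I molecules outside the loading complex. It read 4.29, 4.35 and 3.77 in the arrays labelled siChe-1, against 5.18, 5.0 and 5.17 in the arrays labelled control. The groups were 0.65 apart. TAPBPL was 1.98-fold lower as measured (log2 difference -0.98 ± 0.16, SE, limma adjusted p = 0.00935). Its means of 4.14 in the siChe-1 arrays and 5.12 in the control arrays both lie within the ranges of leukocyte marker means there (2.46 to 6.07 and 2.41 to 5.84). Neither level is therefore known to exceed background, and the size of the difference is uncertain. The call was lost without control replicate 1 (adjusted p = 0.0616) or control replicate 3 (adjusted p = 0.0654). Relative to each other, TAPBP minus TAPBPL averaged 4.57 ± 0.17 in the arrays labelled siChe-1 and 4.09 ± 0.074 in those labelled control (SD, n = 3 each), a difference of 0.48 whose size is uncertain for the same reason. The groups did not overlap, and the exact two-sided permutation p was 0.1, the smallest that 3 arrays against 3 allow (0.15 adjusted over 3 pairs).

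ERAP1 encodes the main ER aminopeptidase that trims peptides to the length class I molecules bind. It showed the largest difference of the 8 genes. ERAP1 read 5.35, 5.72 and 5.15 in the arrays labelled siChe-1, against 7.40, 7.49 and 7.73 in the arrays labelled control. All siChe-1 arrays were at least 1.68 below the lowest control array, the widest gap among the 8. ERAP1 was 4.40-fold lower, to 22.7% of its control level (log2 difference -2.14 ± 0.16, SE, 95% confidence interval -2.50 to -1.77, limma adjusted p = 4.69e-05). Its siChe-1 mean of 5.40 lies within the range of leukocyte marker means, so the size of the difference is uncertain.

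ERAP2, the neighbour of ERAP1 on chromosome 5, encodes a related aminopeptidase with a different preference for residues. It read 4.28, 4.93 and 4.57 in the arrays labelled siChe-1, against 5.70, 5.54 and 6.04 in the arrays labelled control. The groups were 0.61 apart. ERAP2 was 2.24-fold lower as measured (log2 difference -1.17 ± 0.19, SE, limma adjusted p = 0.00710), and the call was lost without control replicate 3 (difference -1.03, adjusted p = 0.0506). Its means of 4.60 in the siChe-1 arrays and 5.76 in the control arrays also lie within the ranges of leukocyte markers, so neither is known to exceed background and the size is uncertain. ERAP1 minus ERAP2 averaged 0.81 ± 0.25 in the arrays labelled siChe-1 and 1.78 ± 0.15 in those labelled control (SD, n = 3 each), a difference of -0.97 whose size is likewise uncertain. The groups did not overlap (exact two-sided permutation p = 0.1, the smallest possible, and 0.15 adjusted over 3 pairs).

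NLRC5 encodes a member of the NLR family that enters the nucleus and activates class I genes, B2M, TAP1 and PSMB9. It read 5.38, 5.0 and 4.78 in the arrays labelled siChe-1, against 6.42, 6.31 and 6.63 in the arrays labelled control. The nearest arrays of both groups were 0.93 apart. NLRC5 was 2.64-fold lower (log2 difference -1.40 ± 0.17, SE, limma adjusted p = 0.00115). Its siChe-1 mean of 5.05 is likewise inside the range of leukocyte markers. The median difference of 15 other NLR genes was -0.013, and 14 did not pass. Their median level was 3.51 in the siChe-1 arrays and 3.48 in the control arrays, within the leukocyte marker ranges. Many of these NLR genes are therefore not known to exceed background. NAIP, a sensor of bacterial proteins, was higher by 0.69 ± 0.15 (SE, limma adjusted p = 0.0338), a call lost without siChe-1 replicate 2 or 3 or without any single control array.

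**Figure D4:**
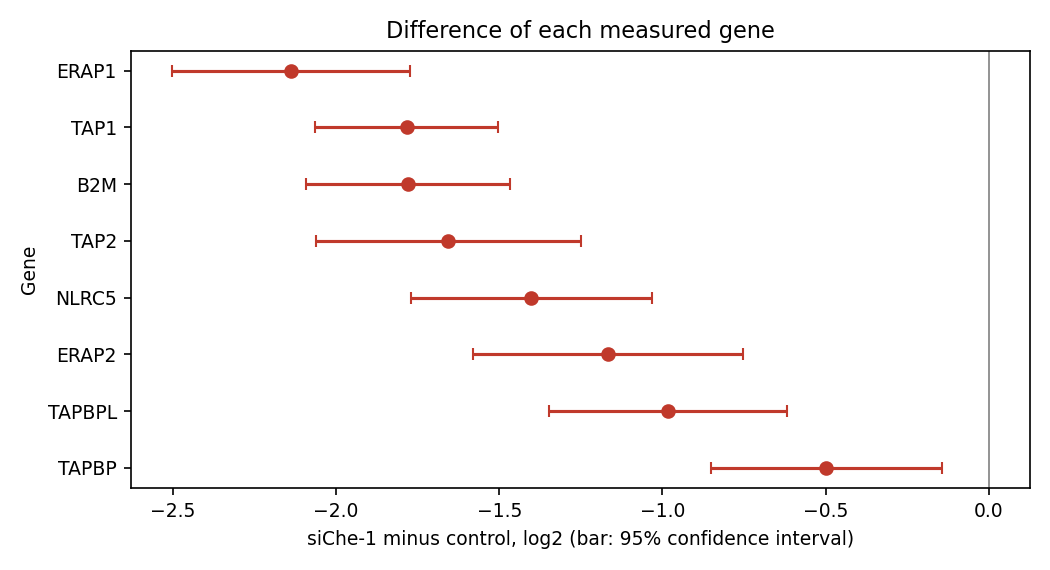
Log2 difference of each measured gene, siChe-1 minus control, with its 95% confidence interval. All 8 points lie below 0, from -2.14 for ERAP1 to -0.50 for TAPBP, whose adjusted p of 0.124 did not pass.

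In the arrays labelled siChe-1, replicate 2 was the highest for 5 of the 8 genes (TAP1, TAP2, TAPBPL, ERAP1 and ERAP2). There, replicate 1 was the lowest for 3 of the 8 genes (TAP1, TAP2 and ERAP2), replicate 2 for B2M and replicate 3 for the other 4. In the arrays labelled control, replicate 3 was the highest for 6 of the 8 genes and the lowest for B2M. The SD was larger in the arrays labelled siChe-1 for 7 of the 8 genes, TAP1 being the exception. It lay between 0.12 and 0.40 there and between 0.074 and 0.26 in the arrays labelled control.

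Genes beside these on the chromosome gave differing values (neighbours were added after the values of the main genes were seen). PSMB9, an interferon-induced proteasome subunit, lies next to TAP1 on the opposite strand with 487 bases between their starts (GRCh38.p14), so the TAP1 sequence shown above lies between both starts. PSMB9 read 5.52, 5.80 and 5.73 in the arrays labelled siChe-1, against 8.34, 8.69 and 8.88 in the arrays labelled control. It was 7.74-fold lower (log2 difference -2.95 ± 0.16, SE, limma adjusted p = 2.25e-06), further than TAP1, with no test of that difference, and its siChe-1 mean of 5.68 is also within that range of leukocyte markers. PSMB8, another induced proteasome subunit, lies between TAP1 and TAP2 and read 3.51 ± 0.22 in the arrays labelled siChe-1 and 3.88 ± 0.17 in those labelled control (SD, n = 3 each). Its log2 difference of -0.37 did not pass (limma adjusted p = 0.226), and neither level is known to exceed background. HLA-DOB, on the other side of TAP2, had -0.51 (limma adjusted p = 0.0866). Beside B2M, PATL2 had -0.55 and TRIM69 -0.41, and beside TAPBP, RGL2 had 0.30 and ZBTB22 0.12. Beside TAPBPL, CD27 had 0.22 and VAMP1 0.60, and beside NLRC5, CETP had 0.028 and CPNE2 0.24. None of these last 8 neighbours passed (limma adjusted p between 0.0879 and 0.942).

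Upstream of the transporter, 4 of 17 proteasome and cytosolic peptidase genes were lower and the other 13 did not pass (median -0.22). Beside PSMB9 these were PSME1 (-0.93) and PSME2 (-1.02), the subunits of the PA28 activator, and LAP3 (-1.04), a leucine aminopeptidase, with limma adjusted p between 0.000900 for PSME2 and 0.00234 for PSME1. The constitutive catalytic subunits PSMB5 (-0.13), PSMB6 (-0.21) and PSMB7 (-0.42) did not pass. Nor did PSMB10, an induced subunit like PSMB8 and PSMB9 (-0.39, limma adjusted p = 0.139). It had means of 6.46 in the siChe-1 arrays and 6.85 in the control arrays. Of 8 relatives of ERAP1 in the M1 aminopeptidase family, 1 was lower and 7 did not pass (median 0.024). The lower gene was TRHDE, which degrades thyrotropin-releasing hormone. It read 4.51 in the arrays labelled siChe-1 and 5.21 in those labelled control (limma adjusted p = 0.0296), both within the leukocyte marker ranges and neither known to exceed background. That call was lost without siChe-1 replicate 3 or without any single control array.

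In the ER, none of 9 general folding factors passed by limma (median -0.16), with 2 at an unadjusted p under 0.05. These were CALR, encoding the lectin chaperone calreticulin (-0.34, adjusted p = 0.227), and HSPA5, encoding the chaperone BiP (-0.35, adjusted p = 0.277). Without siChe-1 replicate 1, 1 of the 9 was lower. CANX, encoding calnexin, had 0.13. None of 8 other ABCB transporters, the family of TAP1 and TAP2, passed either, with ABCB6 at 0.49 (limma adjusted p = 0.118) and ABCB1 at 0.29 (0.513). ABCB6 was the gene at an unadjusted p under 0.05. Without siChe-1 replicate 1, 1 of the 8 was higher. The median level of these ABCB genes was 5.46 in the siChe-1 arrays and 5.32 in the control arrays. Both lie within the leukocyte marker ranges, so many of them are not known to exceed background.

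Of 12 class I-like molecules, 2 were lower and 10 did not pass (median -0.069). The median level of the 12 was 4.44 in the siChe-1 arrays and 4.27 in the control arrays. Both lie within the leukocyte marker ranges, so many of the 12 are not known to exceed background. MICA, a stress ligand of the NK cell receptor NKG2D, read 6.95, 7.16 and 6.97 in the arrays labelled siChe-1, against 7.80, 7.82 and 7.73 in the arrays labelled control (log2 difference -0.76 ± 0.12, SE, limma adjusted p = 0.00608). MICB, another such ligand, had -0.72 ± 0.14 (SE, limma adjusted p = 0.0190). Neither binds beta-2-microglobulin. Without siChe-1 replicate 3, or without any single control array, 1 of the 12 was lower. Of 11 class II presentation genes none passed (median 0.030), with 3 at an unadjusted p under 0.05. The nearest were HLA-DOB and IFI30 (-0.42, limma adjusted p = 0.111). The median level of the 11 was 4.69 in the siChe-1 arrays and 4.45 in the control arrays. These levels too lie within the leukocyte marker ranges, so many of the 11 are not known to exceed background. MR1, which presents vitamin metabolites and does pair with beta-2-microglobulin, had -0.54 (limma adjusted p = 0.110), and HFE, an iron regulator that also pairs with it, had 0.034.

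Among 22 measured regulators of class I transcription, 4 were lower and the other 18 did not pass (median -0.11). IRF9, the DNA-binding part of the type I interferon complex, read 5.89, 6.36 and 6.03 in the arrays labelled siChe-1, against 7.83, 8.07 and 8.09 in the arrays labelled control (log2 difference -1.91 ± 0.15, SE, limma adjusted p = 5.24e-05). Its siChe-1 mean of 6.09 was close to the highest leukocyte marker mean there (6.07), so the size of the difference is uncertain. IRF1, an activator of TAP1 and PSMB9, had -1.50 ± 0.15 (SE, limma adjusted p = 0.000272). IFNGR2, a chain of the interferon gamma receptor, had -0.78, and IRF2, an IRF1 relative, had -0.66. The subunits of the complex that NLRC5 works with on the promoter module did not pass, with RFX5 at 0.0075, RFXAP at -0.059, RFXANK at -0.17, NFYA at 0.24, NFYB at 0.011, NFYC at -0.053 and CREB1 at 0.067. CIITA, the class II counterpart of NLRC5, had 0.097 (limma adjusted p = 0.764). Without siChe-1 replicate 3, or without any single control array, 2 of the 22 were lower. List genes without a probe set of 1 symbol were not analysed here.

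**Figure D5:**
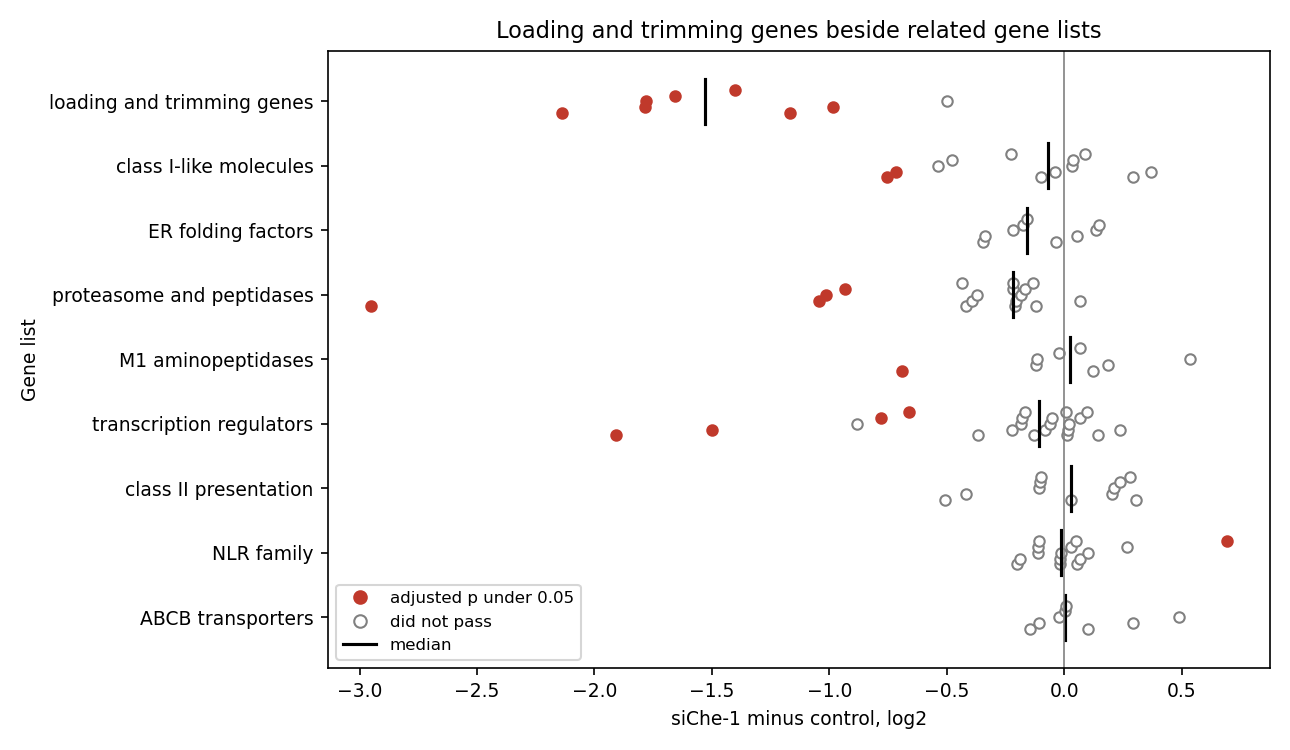
Log2 differences, siChe-1 minus control, of the 8 measured loading and trimming genes (top row) and of 8 related gene lists. Filled red points passed (limma adjusted p under 0.05), open points did not, and the black line is the median. The top row has a median of -1.53, while the medians of the other rows lie between -0.22 and 0.030. In the class I-like, class II, NLR and ABCB rows the median level lies within the leukocyte marker ranges in both groups. It is between 3.51 and 5.46 in the siChe-1 arrays and between 3.48 and 5.32 in the control arrays. Many genes of these rows are therefore not known to exceed background, and their medians near 0 are no measure of expressed genes.

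For B2M, TAP1 and NLRC5, the genes with the nearest profiles over the 6 arrays were found by the root mean square distance between values centred on each gene's mean, in log2 units. Nearest to B2M were F3, encoding the clotting initiator tissue factor (distance 0.16), TRANK1 (0.21) and RELB, an NF-kB subunit (0.21). Nearest to TAP1 were LAMB3, a laminin chain (0.084), PLK2, a polo-like kinase (0.11), and NAV3 (0.11). Nearest to NLRC5 were SEMA7A, a membrane-anchored semaphorin (0.082), NFE2L3, a transcription factor (0.089), and PML, the organiser of PML nuclear bodies (0.10). Their log2 differences lay between -1.91 for PLK2 and -1.28 for PML, and were fixed to be like those of the 3 genes by the choice on distance. TRANK1 had means of 3.27 in the siChe-1 arrays and 4.81 in the control arrays. Both lie within the leukocyte marker ranges, so neither is known to exceed background. The siChe-1 means of RELB (5.46), NAV3 (5.79) and PML (5.51) also lie within that range, so the size of their differences is uncertain.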

How the data were processed

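Gene expression was measured on 6 arrays, 3 labelled siChe-1 and 3 labelled control. The deposited table holds log2 intensities, which the authors computed in Affymetrix Expression Console by RMA. The submitters' processing notes name both, and their versions are not given in the sources used here. Because RMA brings arrays to a like distribution, it hides any shift in the RNA content of a cell, and it compresses differences of dim genes. Array medians lay between 4.95 and 5.05, and the table has no detection calls.

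Of 33297 probe sets, 19460 had 1 gene symbol, 1754 had several and 12083 were unlisted. Gene identifiers of 19429 were found in the NCBI table (GRCh38.p14), which changed 0 symbols. Genes with several probe sets took the brightest, leaving 18417 genes. There were 0 columns of other samples. The test was limma 3.58.1 (R 4.3.3), with lmFit and eBayes on group alone and every gene kept, and adjusted p-values under 0.05 were called. Errors are SDs over 3 arrays or moderated SEs. On simulated data for this comparison with 18417 genes, of which 200 were changed, the fit recovered 79% of 2-fold and 99% of 4-fold changes, and 5.32% of calls were false. These rates describe the simulated data and may not hold for these arrays or for dim genes.

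The genes and lists were chosen with earlier results of these data known. The genes named are the 10 main genes, AATF, up to 4 called genes per list (all if 5 or fewer, the 2 with the smallest p if none) and the 3 nearest profiles of B2M, TAP1 and NLRC5. Other list genes and the neighbours were named after their values were seen. HLA-F minus HLA-E could not be computed. In the other marker lists, 0 of 13 fibroblast and endothelial genes (nearest ACTA2, -0.46, and COL1A1, 0.38) and 0 of 13 neural and muscle genes (TNNT3, 0.34, and CKM, 0.28) passed by limma (2 and 1 at an unadjusted p under 0.05), nor did CD14 (0.38) and CD3D (0.34) of the leukocyte list. Of 12 epithelial markers, ELF3 was higher (0.67) and KRT19 lower (-0.59). The lower count fell to 0 without siChe-1 replicate 2 or 3 or any single control array, and the higher count to 0 without siChe-1 replicate 2 or any single control array. An unadjusted p under 0.05 by limma was also found for 8 of 17 proteasome and peptidase genes and 6 of 12 epithelial markers. So it was for 5 of 12 class I-like, 5 of 22 regulator, 2 of 8 M1 aminopeptidase and 1 of 15 NLR genes. The share of all genes at that cut is not given here, so these unadjusted counts have no background beside them.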

Additional observations from a re-analysis of the deposited data

How the results depend on the processing

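The log2 differences of the 8 measured genes stayed below 0 under every alternative run. The number called lower lay between 5 and 8 when any 1 array was left out and between 6 and 8 under the others, and none was called higher. TAPBP passed with array weights (-0.70, adjusted p = 0.00226), and over its alternatives the adjusted p lay between 0.00226 and 0.342. TAPBPL, at -0.98, fell short of a 2-fold limit, and leaving out the dimmest 40% of genes removed it. For TAPBPL the adjusted p lay between 0.000111 and 0.0654, and for ERAP2 between 0.000143 and 0.0506. The difference of TAP1 minus TAP2 lay between -0.27 and 0.0063 when 1 array was left out, turning sign without siChe-1 replicate 2. The other pair differences kept their sign, between 0.42 and 0.58 for TAPBP minus TAPBPL and between -1.10 and -0.85 for ERAP1 minus ERAP2.

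When all rows, that is all 33297 probe sets, were tested, 408 probe sets passed (101 higher, 307 lower), which is not a count of genes. Over all genes the count of 685 (220 higher, 465 lower) moved to 2865 (1348 higher, 1517 lower) with array weights. It moved to 261 (64 higher, 197 lower) at adjusted p under 0.01 and to 187 (34 higher, 153 lower) with a 2-fold limit. With 1 array left out it lay between 272 (control replicate 3 left out) and 1565 (siChe-1 replicate 1 left out), with 63 to 739 higher and 199 to 826 lower. Leaving out control replicate 1 gave 273, control replicate 2 gave 290 and siChe-1 replicate 3 gave 350, while without siChe-1 replicate 2 there were 115 higher. The cause was not tested, beyond more rows tested and stricter limits.

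Replicate numbers run from 1 to 3 in each group, and no label ties a number to a culture or day, so the numbers were not taken as pairs. Deviations from the group means of same-numbered arrays correlated at 0.23, 0.064 and -0.045 over the genes. Those of differently numbered arrays correlated between -0.23 and 0.16. So few values cannot settle whether the arrays were paired. With the replicate block 1145 genes were called (416 higher, 729 lower), 7 of the 8 genes were lower as before, and 1 M1 aminopeptidase gene was higher and 1 class II gene lower.

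List counts moved as follows. With array weights 4 class I-like genes were lower and 1 higher, 1 folding factor was lower, 8 proteasome and peptidase genes were lower, 1 M1 aminopeptidase gene was higher, 2 class II genes were lower and 1 ABCB gene was higher. When all rows were tested, or at adjusted p under 0.01, 1 class I-like gene and 2 regulators were lower, and 0 M1 aminopeptidase and 0 NLR genes passed. With a 2-fold limit 0 class I-like, 0 M1 aminopeptidase and 0 NLR genes and 2 regulators passed. Without the dimmest genes 0 M1 aminopeptidase genes were lower, and with probe sets averaged 0 NLR genes were higher. With 1 array left out, 1 to 3 class I-like genes, 0 to 1 folding factors, 4 to 5 proteasome and peptidase genes, 0 to 1 M1 aminopeptidase genes and 2 to 5 regulators were lower, and 0 to 1 M1 aminopeptidase, 0 to 1 NLR and 0 to 1 ABCB genes were higher. The dim levels of ERAP1 and NLRC5 in the arrays labelled siChe-1, and of TAPBPL and ERAP2 in both groups, leave the size of their differences uncertain.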

Other observations

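Signal over several class I heavy chain genes was seen in 6 probe sets that the annotation pairs with more than 1 symbol, from which no single gene can be named. These values belong in no comparison of the genes above. In the 3 probe sets paired with both HLA-C and HLA-B, means lay between 10.13 and 10.51 in the arrays labelled siChe-1 and between 11.64 and 11.99 in those labelled control, with log2 differences between -1.51 and -1.48. In the 3 paired with both HLA-F and HLA-B, means lay between 5.79 and 6.67 in the arrays labelled siChe-1 and between 7.21 and 8.09 in those labelled control, with log2 differences between -1.43 and -1.42. In all 6 the siChe-1 arrays lay below the control arrays without overlap, as did 13.3% of all genes. The 3 probe sets of each pair of symbols ran nearly in parallel over the arrays, so they were not taken as separate measurements. Classical class I genes are near-identical over long stretches, so probes of these sets can read several of them.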
